A study of Mus musculus with 15 samples.

Results

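Gene expression in vehicle was compared between leukemias of Eμ-TCL1;p53R172H/+ mice and of Eμ-TCL1 mice. The comparison used the 8 DMSO libraries of the 15 in the series, chosen by their labels. Of these, 5 are Eμ-TCL1;p53R172H/+ (replicates 1 to 5, called mutant below) and 3 are Eμ-TCL1 (replicates 2, 3 and 4, called TCL1 below). The remaining 7 libraries come from cells given ibrutinib, an inhibitor of Bruton's tyrosine kinase. All mice carry the Eμ-TCL1 transgene, and the mutant mice are also heterozygous for the R172H allele of Trp53. The strain is given as C57Bl/6, and per the study's methods the mice were backcrossed to it for 5 generations. Some DNA of other origin may therefore remain, also around the R172H allele. Whether each leukemia kept its wild-type allele was not analysed here. Spleens with tumor burden were broken up mechanically, the cells were kept for 24 h with DMSO and total RNA was sequenced. No sort for B-cells is described, the ages of the mice are not given in the sources used here, and the labels do not say whether each library is a separate mouse, so p-values measure the spread between these libraries, which may be technical. Values are the authors' normalized CPM, a read count scaled to library size, and all 16470 listed genes were compared with limma after adding 1 and taking log2. A log2 difference is mutant minus TCL1 on that scale, which understates the difference of low genes.

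In Eμ-TCL1 mice an immunoglobulin heavy-chain enhancer drives the TCL1 oncogene in B-cells, and the mice develop an expansion of CD5+ B-cells used as a model of chronic lymphocytic leukemia (CLL). The p53 protein is a transcription factor that answers DNA damage by raising genes that stop the cell cycle or start apoptosis, and R172H is a change in its DNA-binding domain. Each B-cell carries its own rearranged immunoglobulin heavy-chain and light-chain variable genes, so the progeny of a single B-cell share them.

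The libraries differed first in which cells they held. Summed over 14 B-cell markers, the level was 354.3 in mutant replicate 1 and 344 in mutant replicate 2, against 5181.7, 5766.1 and 5218.4 in mutant replicates 3, 4 and 5. In TCL1 it was 731.3 in replicate 2, 7878.8 in replicate 3 and 5967.5 in replicate 4. The labelled B-cells were thus rich in their markers in 5 libraries and poor in them in the other 3, Vpreb3 alone being listed at 0 (in mutant replicates 1 and 2, and in TCL1 replicate 3 as well). Mutant replicates 1 and 2 had summed T-cell markers of 5148.8 and 6333.4, and the other 6 libraries had 356.3 to 1011.9. The receptor subunit Cd3e was 113.5 and 282.9 in mutant replicates 1 and 2 and 2.8 to 12.8 elsewhere, and Cd8a, which marks cytotoxic T-cells, was 266.2 and 298.1 against 10.1 to 79.4. Natural killer markers were 1010.4 and 1099 in the same pair and at most 90.3 in the other libraries. TCL1 replicate 2 had summed myeloid markers of 29782.5 and erythroid markers of 18199.4, where the other 7 libraries had at most 335.8 and 74. Its neutrophil gene S100a8 was 8994.9 and its globin gene Hbb-bs was 11186.9. In RNA from a mixture, fewer cells of a type and less RNA per cell cannot be told apart. Results over the 8 libraries are therefore followed, for most gene lists, by those over the 5 libraries rich in B-cell markers (mutant replicates 3, 4 and 5 and TCL1 replicates 3 and 4).

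**Figure D1:**
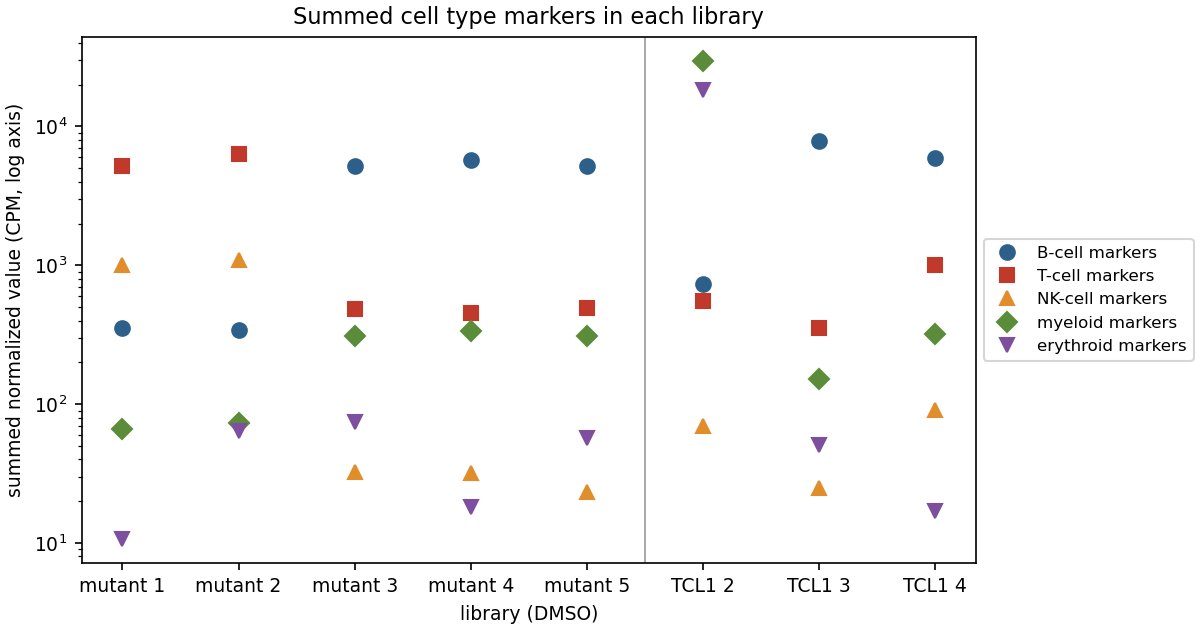
Summed normalized values (CPM, log axis) of 5 marker lists in each DMSO library, with mutant libraries left of the line and TCL1 libraries right of it. B-cell markers lie between 344 and 731.3 in mutant replicates 1 and 2 and TCL1 replicate 2 and 5181.7 or above in the other 5 libraries.

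Libraries also paired off. Over the 10773 genes with a mean value of at least 5 the Pearson correlation of log2 values was 0.973 between mutant replicates 1 and 2, 0.970 between mutant replicates 3 and 5 and 0.937 between TCL1 replicates 3 and 4, whereas TCL1 replicate 2 reached 0.595 to 0.676 with the others. These pairs were not identical in their values and each library was counted, with an alternative that averages both mutant pairs and leaves the TCL1 pair as it is. Transcripts of the Y chromosome were present in mutant replicates 1, 2 and 4 (Ddx3y 177.0, 177.3 and 75.1) and at 0.1 or less in the other 5 libraries, so sex and genotype cannot be fully told apart. The mitochondrial ribosomal gene mt-Rnr2 took 20.7% of the column sum in TCL1 replicate 2 and 3.29% to 7.51% in the others.

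The leading variable genes separated the leukemias. Ighv1-55, a heavy-chain variable gene, was 198.6, 817.4 and 1093.9 in TCL1 replicates 2, 3 and 4 and 1.9, 1.9, 1.3, 0.3 and 1.3 in mutant replicates 1 to 5. Igkv12-89, a kappa light-chain variable gene, was 264.6, 916.7 and 1179.5 in TCL1 and 2.7, 7.0, 6.5, 8.0 and 6.4 in mutant. Every TCL1 library lay far above every mutant library in both genes. They were the only genes past an adjusted p of 0.05, so percent called was 0.0121% of the 16470 genes, and both were lower in mutant. Variable genes go with the B-cell that a leukemia grew from, and every TCL1 library held both genes. Genotype and a leukemia shared by the TCL1 libraries thus cannot be told apart in these 2 genes. The log2 difference was -7.97 for Ighv1-55 (standard error 0.56, adjusted p = 0.00524) and -6.60 for Igkv12-89 (standard error 0.51, adjusted p = 0.00569). With mutant replicates 1 and 2 averaged and 3 and 5 averaged, the differences were -8.10 and -6.53 and neither passed (adjusted p = 0.153 for both). Neither passed without TCL1 replicate 3 (adjusted p = 0.0774 for both), where 0 genes were called and 1741 had an unadjusted p under 0.05. Without mutant replicates 1 and 2 the adjusted p was 0.0802 for Ighv1-55 and 0.0859 for Igkv12-89, and without the libraries with Y-linked transcripts 0.114 for both. The count of called genes was 61 without TCL1 replicate 2, 60 of them lower in mutant, and 5 without mutant replicate 4.

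The sequences below show how far each of the called genes can be told from its relatives. They are the last 150 bases of the exon that codes for the variable domain (GRCm38 with GENCODE M21 exons), from chr12:115208095-115208244 on the minus strand and chr6:68834846-68834995 on the minus strand, and capitals mark bases that lie in no 50-base window shared with another gene of the same family.
Ighv1-55: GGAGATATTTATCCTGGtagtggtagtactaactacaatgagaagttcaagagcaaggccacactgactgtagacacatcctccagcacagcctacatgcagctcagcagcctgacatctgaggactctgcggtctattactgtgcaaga
Igkv12-89: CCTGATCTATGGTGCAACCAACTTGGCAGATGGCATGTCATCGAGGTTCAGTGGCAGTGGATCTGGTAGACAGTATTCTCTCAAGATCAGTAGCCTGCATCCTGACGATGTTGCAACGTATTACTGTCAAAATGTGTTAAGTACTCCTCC
Of the 256 windows of 50 bases in the Ighv1-55 exon, 106 (41.4%) occur in at least 1 of 182 other heavy-chain variable genes, so reads of the lower-case stretch could be split or lost in counting. Of the 249 windows in the Igkv12-89 exon, 0 occur in the 159 other kappa genes.

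Each mutant library had a leading pair of its own or shared it with its partner. Mutant replicates 3 and 5 had Ighv6-3 at 576.7 and 664.9 and Igkv12-46 at 923.4 and 1076.9. The ibrutinib library labelled mutant replicate 3 led instead with Ighv1-52 (124.2) and Igkv19-93 (492.3). Its Ddx3y was 82.1, against 0.1 in the DMSO library of that number, so these 2 libraries differ in leukemia or label. Whether a library was exchanged or repeated was not tested. Mutant replicate 4 had Ighv12-3 at 606.3 and Igkv4-91 at 749.8. Mutant replicates 1 and 2, low in B-cell markers, had Ighv11-2 at 26.2 and 27.1 and Igkv14-126 at 40.2 and 55.8. In mutant replicates 3 to 5 the leading heavy-chain gene held 93.8% to 94.9% of all Ighv values, and in TCL1 replicates 3 and 4 Ighv1-55 held 89.1% and 99.3%. TCL1 replicate 2 held both Ighv9-3, at 506.7, and Ighv1-55, and both Igkv3-5, at 416.3, and Igkv12-89. The called genes were thus the leading variable genes that TCL1 replicates 3 and 4 had in common. No mutant library had a leading variable gene in common with a TCL1 library.

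**Figure D2:**
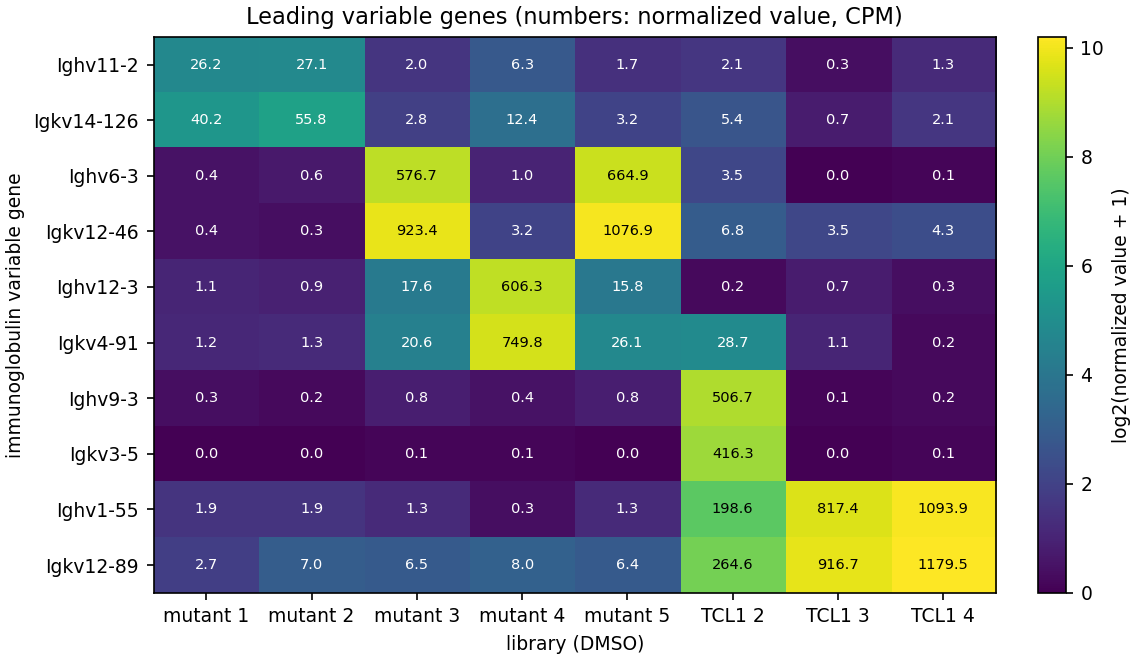
Normalized values (CPM, printed in each cell, colored by log2 of the value plus 1) of the leading heavy-chain and kappa variable genes in each DMSO library. Mutant replicates 1 and 2 share a pair of genes, mutant replicates 3 and 5 share another, mutant replicate 4 stands alone, and Ighv1-55 and Igkv12-89 reach 198.6 or more in the 3 TCL1 libraries and 8.0 or less in the mutant libraries.

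Across all genes the median log2 difference was 0.04, with 8777 genes higher and 7693 lower in mutant. An unadjusted p under 0.05 was reached by 1346 genes (8.17%), of which 580 were higher (3.52%) and 766 were lower (4.65%). The genotypes did not overlap in 1063 genes (6.45%), 580 higher (3.52%) and 483 lower (2.93%).

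Among genes lower in mutant without overlap, the 10 with the lowest p included the variable genes and 8 others, which did not pass the threshold (adjusted p from 0.0633 to 0.0646). Il15, a cytokine that sustains natural killer and memory T-cells, was 19.7, 12.6 and 9.6 in TCL1 and 0.9, 0.9, 1.4, 2.2 and 1.0 in mutant, a log2 difference of -2.69 (standard error 0.33). Rdh12, a retinol dehydrogenase, was 33.8, 56.8 and 62.4 in TCL1 and 3.9, 5.1, 7.4, 7.9 and 7.7 in mutant (log2 difference -2.80, standard error 0.32). For Il15 and Rdh12 the lowest TCL1 library was over 4 times the highest mutant library. Nav2, a cytoskeletal protein named for its part in neuron guidance, was 42.2, 18.9 and 20.5 in TCL1 and 0.0, 0.3, 1.1, 1.9 and 2.1 in mutant (log2 difference -3.80, standard error 0.48). Mnda, an interferon-inducible nuclear protein of myeloid and B-cells, was 3.2, 9.6 and 10.2 in TCL1 and 0.1, 0.2, 0.0, 0.5 and 0.0 in mutant (log2 difference -2.79, standard error 0.36). Raph1, which directs actin growth at the leading edge of cells, was 11.5 to 18.6 in TCL1 and 0.5 to 2.2 in mutant. The remaining ones were at 0.3 or less in every mutant library. Reln, a secreted matrix protein, was 5.3 to 19.3 in TCL1 and 0.1 to 0.2 in mutant. Chst1, a sulfotransferase, was 3.9 to 9.2 and 0.0 to 0.3, and the intronic transcript Gm15513 was 1.9 to 3.7 and 0.1 to 0.3. A gene without overlap keeps its direction in any part of the libraries, so the direction of these 8 in the 5 libraries was fixed by the choice. Rdh12, Reln and Gm15513 passed the threshold there beside the variable genes (adjusted p from 0.0348 to 0.0476). Mnda overlaps its relative Mndal, and Raph1, Reln, Nav2 and Gm15513 overlap other annotated genes too, so reads of overlapping genes may have been lost or exchanged.

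**Figure D3:**
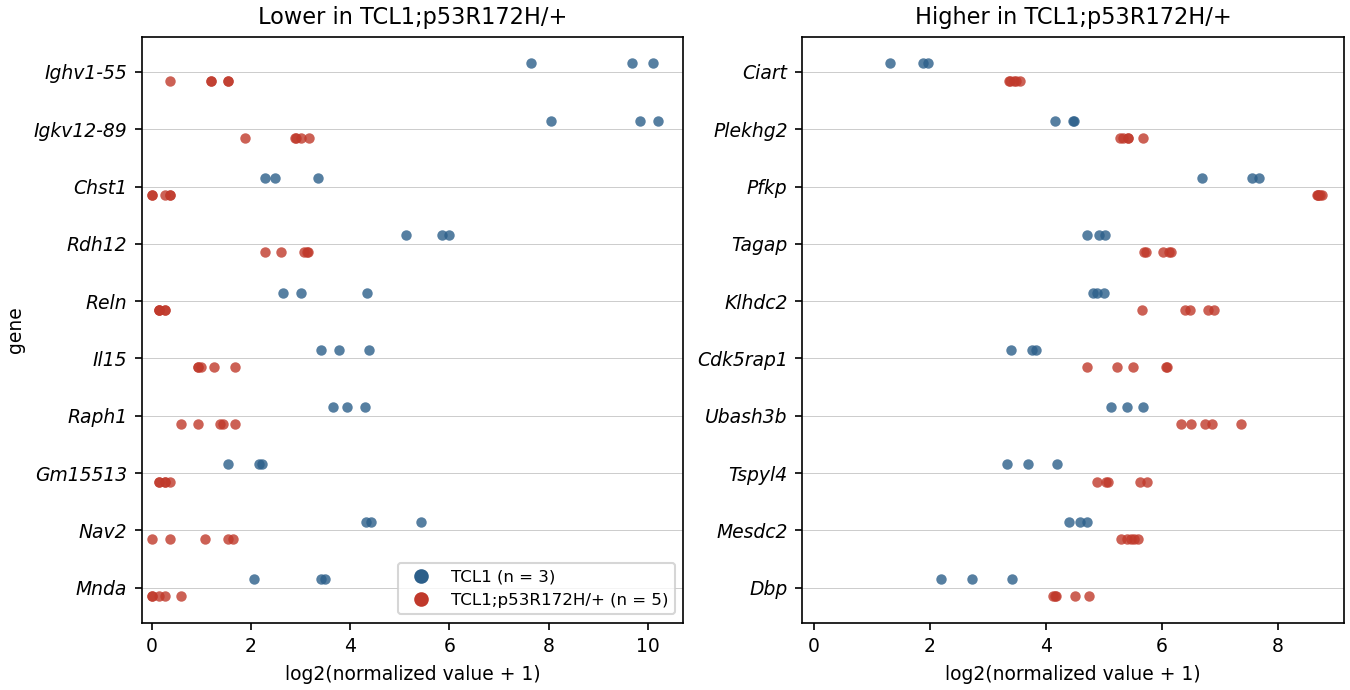
Log2 of the normalized value plus 1 in each library for the 10 genes per direction with the lowest p among genes without overlap (blue, 3 TCL1 libraries; red, 5 mutant libraries). The rule picks genes without overlap, so the gap in each row is a property of the choice, and its width is largest for Ighv1-55 and Igkv12-89.

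Among genes higher in mutant without overlap, none of the 10 with the lowest p passed the threshold (adjusted p from 0.108 to 0.285). Ciart, a repressor within the circadian clock, was 9.3, 9.5, 10, 10.2 and 10.7 in mutant and 1.5, 2.7 and 2.9 in TCL1, a log2 difference of 1.73 (standard error 0.27, adjusted p = 0.108). Pfkp, a phosphofructokinase of glycolysis, was 434.9, 425.3, 412.1, 412.2 and 408.9 in mutant and 103.0, 204.5 and 187.3 in TCL1 (log2 difference 1.40, standard error 0.26, adjusted p = 0.234). The mutant libraries lay close together in both genes, but a choice by the lowest p favors genes with a small spread. Tagap, a GTPase regulator of activated lymphocytes, was 50.8 to 70.8 in mutant and 25.3 to 31.6 in TCL1. Ubash3b, a phosphatase that damps antigen receptor signaling, was 80.1 to 164.8 and 34.0 to 50.2. Plekhg2, a guanine nucleotide exchange factor, was 37.8 to 50.5 and 16.8 to 21.5. Klhdc2, a substrate receptor of a ubiquitin ligase, was 49.8 to 118.3 against 27.1 to 31.3. Cdk5rap1, which modifies mitochondrial transfer RNAs, was 25.1 to 66.9 against 9.6 to 13.3, with the lowest mutant value in replicate 4. Mesdc2, a chaperone of lipoprotein receptors, was 38.3 to 47.4 against 20.1 to 25.1, and Tspyl4 was 28.5 to 52.4 against 9.1 to 17.4. The tenth gene, Dbp, belongs to the clock and is given with it. Their direction in the 5 libraries was fixed by the choice of genes without overlap, and 0 of the 10 passed the threshold there. Ciart, Pfkp, Tagap, Klhdc2, Ubash3b, Tspyl4 and Dbp each overlap a gene on the opposite strand (for Pfkp, Pitrm1), as Tk1 below does, and Ubash3b and Mesdc2 overlap another on their own strand. The strand setting of the count is not given in the sources used here, so reads of such partners cannot be told apart.

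Trp53 itself was 52.1, 58.3, 54.8, 56.6 and 67.0 in mutant and 26.0, 47.4 and 52.3 in TCL1. Mutant replicate 1 and TCL1 replicate 4 overlapped, and without TCL1 replicate 2 the log2 difference went from 0.51 to 0.21. The table has a single value per gene, so transcripts of the R172H allele and of the wild-type allele are not separated and the genotype of each library was not checked from reads. Around Trp53 on chromosome 11, within 5 Mb on either side, 150 genes were listed, 77 higher and 73 lower, with a median log2 difference of 0.01. Of these, 4 higher and 6 lower had an unadjusted p under 0.05, beside 3.52% and 4.65% of all genes. In 13 the genotypes did not overlap, 4 higher and 9 lower, beside 3.52% and 2.93% of all genes. The lowest p there belonged to Spns3, a member of the spinster transporter family, which was 14.3, 7.3 and 13.3 in TCL1 and 0.3, 0.2, 2.2, 2.2 and 2.5 in mutant (log2 difference -2.45, standard error 0.48, adjusted p = 0.245). Next came Per1, given below with the clock genes, and Nlrp1b. Nlrp1b was 54.3, 13.6 and 10.6 in TCL1 and 6.0, 7.0, 3.0, 2.6 and 2.2 in mutant (log2 difference -2.13, standard error 0.57, adjusted p = 0.404). Aurkb, given below with the mitotic genes, also lies in this window. The part of DNA linked to the R172H allele in these differences was not tested.

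Of 33 genes that p53 is known to activate, 32 were listed, 15 higher and 17 lower in mutant, with a median log2 difference of -0.03. Only Bax, which opens the mitochondrial membrane in apoptosis, had an unadjusted p under 0.05 (beside 8.17% of all genes). It was 40.7, 41.7, 52.7, 66.1 and 70.3 in mutant and 30.1, 27.4 and 36.7 in TCL1 (log2 difference 0.75, standard error 0.25, adjusted p = 0.543), and its groups did not overlap. The cell cycle inhibitor Cdkn1a was 1.2, 1.2, 3.9, 14.8 and 7.9 in mutant and 23.8, 2.8 and 10.4 in TCL1. Mdm2, the ligase that degrades p53, was 56.1 to 101.1 in mutant and 70.6 to 130.4 in TCL1. For Cdkn1a and Mdm2 the log2 differences over the 8 libraries were -1.02 and -0.24, and over the 5 libraries 0.42 and 0.19, so their direction turned with the libraries used. The apoptosis gene Bbc3 had a log2 difference of 0.48 and the cyclin Ccng1 one of -0.48, and both overlapped. In the 5 libraries the list was again level, with 16 higher, 16 lower, 4 in each direction at an unadjusted p under 0.05 and a median of -0.02, beside 8.35% and 8.71% of all genes at that p. There the kinase Plk2 was 146.1, 94.3 and 152.4 in mutant replicates 3, 4 and 5 and 0.6 and 17.4 in TCL1 replicates 3 and 4, but it was 3.3 and 2.5 in mutant replicates 1 and 2 and 19.3 in TCL1 replicate 2. Among 12 listed genes upstream of p53, the damage checkpoint kinase Chek2 was lower without overlap, at 7.1 to 9.5 in mutant and 19.6, 12.6 and 16.9 in TCL1 (log2 difference -0.90, standard error 0.25, adjusted p = 0.446). Atm and Atr, the kinases that sense DNA damage, had log2 differences of 0.14 and 0.17.

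**Figure D4:**
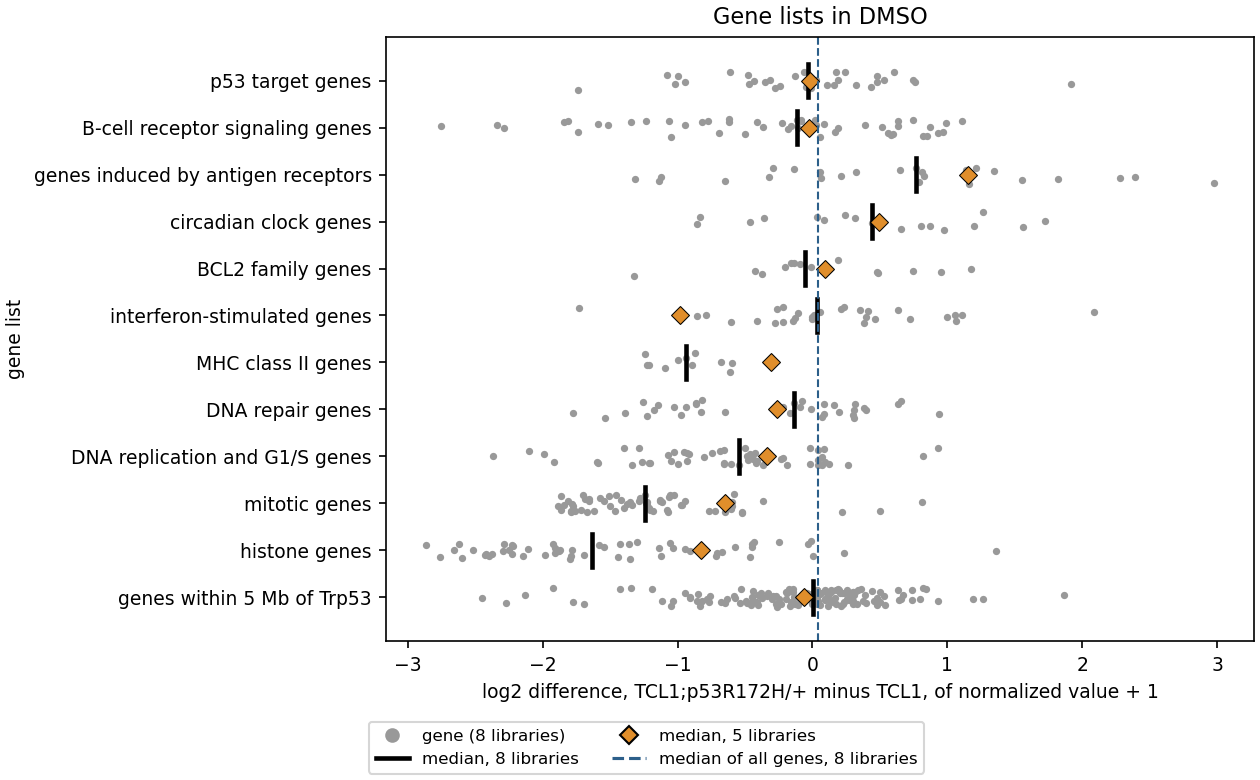
Log2 difference (mutant minus TCL1) of each gene in 12 lists over the 8 libraries (gray), with the list median over the 8 libraries (black bar) and over the 5 libraries rich in B-cell markers (orange diamond) and the median of all genes (dashed line, 0.04). Mitotic and histone genes lie mostly left of 0, the p53 target genes are spread around it, and the interferon-stimulated genes have a median of 0.03 over 8 libraries and -0.98 over 5.

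Genes of cell division had lower averages in mutant, without a clean separation of the libraries. The summed mitotic level was 4202, 1574.5 and 3426.6 in TCL1 and 2059.6, 2345.3, 1536.5, 1943.8 and 940.7 in mutant, so TCL1 replicate 3 lay below mutant replicates 1, 2 and 4. Of 61 listed mitotic genes, 58 had a lower mean in mutant and 36 of these had an unadjusted p under 0.05, beside 4.65% of all genes, with a median log2 difference of -1.24 and 0 past the threshold. Ccnb2, a mitotic cyclin, was 35.0, 9.3 and 22.4 in TCL1 and 4.1, 4.4, 6.2, 9.2 and 4.8 in mutant (log2 difference -1.66, standard error 0.44, adjusted p = 0.401). Aurkb, a kinase of the chromosomal passenger complex, was 20.3, 13.0 and 31.6 in TCL1 and 2.8, 2.2, 7.1, 12.8 and 5.9 in mutant (log2 difference -1.78, standard error 0.53, adjusted p = 0.482). In both genes TCL1 replicate 3 came within 0.2 of mutant replicate 4, and the groups just failed to overlap. The proliferation marker Mki67 was 895.4, 234.4 and 468.3 in TCL1 and 75.0, 111.1, 205.8, 276.9 and 61.9 in mutant, so mutant replicate 4 lay above TCL1 replicate 3. Top2a, the topoisomerase that untangles chromosomes, ran from 150.5 to 552.0 in TCL1 and from 49.7 to 200.8 in mutant. Pttg1, Bub3 and Smc4 were the 3 mitotic genes with a higher mean in mutant. Among all 61 genes, 4 did not overlap, 1 higher and 3 lower, beside 3.52% and 2.93% of all genes. Over the 5 libraries 57 of the 61 were lower, with a median of -0.65 and 2 lower at an unadjusted p under 0.05, beside 8.71% of all genes. The libraries left out were TCL1 replicate 2, which had the highest summed mitotic level and the high myeloid and erythroid markers given above, and mutant replicates 1 and 2, with the T-cell markers, and the part of those cells in the result was not tested.

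The promoter of Ccnb2 is shown because cell cycle genes of this kind are known to carry a CHR element (TTTGAA) with CCAAT boxes. It runs from 250 bases before to 50 after the start (RefSeq, GRCm38.p6, chr9:70421505-70421804, minus strand), with both motifs, read on either strand, in capitals.
Ccnb2: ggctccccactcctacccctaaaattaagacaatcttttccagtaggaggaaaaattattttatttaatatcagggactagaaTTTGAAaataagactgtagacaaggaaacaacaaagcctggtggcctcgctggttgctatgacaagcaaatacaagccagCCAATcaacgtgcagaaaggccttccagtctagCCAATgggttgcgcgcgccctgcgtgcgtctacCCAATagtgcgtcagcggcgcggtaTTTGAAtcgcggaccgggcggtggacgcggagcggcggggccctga
Over both strands it holds CCAAT 3 times and TTTGAA 2 times. Searched on both strands, TTTGAA was found in 33 of 47 mitotic genes with a promoter entry (70.2%), in 20.2% of all genes with an entry and in 17.9% of all 32851 promoters. CCAAT was found in 35 of the 47 (74.5%), in 41.1% of genes and in 37.4% of promoters. Such a match describes the letters only.

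Genes of DNA replication and the entry into S phase followed in part. Of 55 listed, 44 were lower in mutant, 7 of them at an unadjusted p under 0.05 and 3 without overlap, beside 4.65% and 2.93% of all genes, with a median log2 difference of -0.55. In the 5 libraries 42 were lower, with a median of -0.33. There 2 were higher and 2 lower at that p, beside 8.35% and 8.71% of all genes. E2f2, a transcription factor of S-phase entry, was 182.9, 91.8 and 175.9 in TCL1 and 32.3, 20.1, 34.9, 39.3 and 41.6 in mutant (log2 difference -2.10, standard error 0.32, adjusted p = 0.103). Tk1, the thymidine kinase of dividing cells, was 15.2, 22.4 and 44.8 in TCL1 and 3.1, 3.1, 2.8, 10.7 and 3.3 in mutant (log2 difference -2.36, standard error 0.49, adjusted p = 0.285). E2f2 was over 2 times higher in the lowest TCL1 library than in the highest mutant library, and in Tk1 mutant replicate 4 stood above the other mutant libraries. The differences of E2f2 and Tk1 over the 5 libraries were -1.70 and -2.51. The cyclin Ccne2, at 43.2, 3.3 and 15.6 in TCL1 and 1.5 to 5.5 in mutant, overlapped. Of 35 DNA repair genes 14 were higher and 21 lower, 1 higher and 6 lower at an unadjusted p under 0.05 beside 3.52% and 4.65% of all genes, with a median of -0.13. That median was -0.59 without TCL1 replicate 2 and 0.03 without TCL1 replicate 4. It was -0.27 over the 5 libraries, where 0 were higher and 1 lower at that p, beside 8.35% and 8.71% of all genes. Among them the nuclease subunit Ercc1 was higher without overlap, at 14.1 to 19.9 in mutant and 8.5 to 12.0 in TCL1 (log2 difference 0.65, standard error 0.24, adjusted p = 0.558), and the glycosylase Neil3 and the Brca1 partner Bard1 had differences of -1.77 and -1.14.

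Histone genes, most of which are transcribed in S phase, were lower in mutant on average. Of 56 genes 53 were lower, 37 at an unadjusted p under 0.05 and 22 without overlap, beside 4.65% and 2.93% of all genes. The median log2 difference was -1.64, with 0 past the threshold. Hist1h4b was 72.6, 28.4 and 58.2 in TCL1 and 7.2, 3.8, 6.4, 19.1 and 5.8 in mutant (log2 difference -2.60, standard error 0.50, adjusted p = 0.245). Hist1h1d, a linker histone, was 345.6, 222.3 and 286.3 in TCL1 and 88.8, 37.8, 40.5, 132.6 and 60.2 in mutant (log2 difference -2.11, standard error 0.42, adjusted p = 0.265). In both, mutant replicate 4 was the highest of its group and still below every TCL1 library. Over the 5 libraries 49 of 56 were lower, 14 at an unadjusted p under 0.05 and 23 without overlap, beside 8.71% and 16.2% of all genes, and the median was -0.83. Histone genes resemble each other, so reads of single members may be exchanged, and replication-dependent histone transcripts lack the usual poly(A) tail, so their level can depend on how RNA was selected, which is not given in the sources used here.

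Clock genes were higher in several mutant libraries. The circadian clock is a loop in which Clock and Arntl drive Per, Cry and Nr1d genes whose products repress them, with Dbp and Tef among its outputs. Of 17 listed genes 13 were higher in mutant, 5 at an unadjusted p under 0.05 and the same 5 without overlap, beside 3.52% of all genes for either count, and the median log2 difference was 0.44. Beside Ciart these were Dbp, Per1, Tef and Cry2. Dbp was 16.8, 17.0, 21.8, 16.4 and 26.0 in mutant and 3.6, 9.7 and 5.6 in TCL1 (log2 difference 1.56, standard error 0.33, adjusted p = 0.285). Per1 was 26.6, 41.0, 37.9, 44.1 and 57.5 in mutant and 22.9, 12.9 and 14.2 in TCL1 (log2 difference 1.26, standard error 0.30, adjusted p = 0.340). Cry2, a repressor of the loop, was 17.1, 16.2, 41.2, 20.8 and 56.4 in mutant and 16.1, 9.4 and 8.9 in TCL1, so that mutant replicate 2 and TCL1 replicate 2 differed by 0.1. The activators were closer together, with Arntl at 0.32 and Clock at 0.03 on the log2 scale, and the repressor Cry1 had a difference of -0.85. The median was 0.17 without mutant replicates 1 and 2 and 0.74 without mutant replicate 5. Over the 5 libraries it was 0.49. There 6 were higher and 0 lower at an unadjusted p under 0.05, beside 8.35% and 8.71% of all genes. Per2 was among the 6, at 18.8, 20.4 and 22.6 in mutant and 5.9 and 4.6 in TCL1. The time of day at harvest is not given in the sources used here, and its part in the result was not tested.

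The promoters of Ciart and Per1 are shown since clock activators bind the E-box CACGTG, which is in capitals (RefSeq, GRCm38.p6, chr3:95882179-95882478 on the minus strand and chr11:69098699-69098998 on the plus strand).
Ciart: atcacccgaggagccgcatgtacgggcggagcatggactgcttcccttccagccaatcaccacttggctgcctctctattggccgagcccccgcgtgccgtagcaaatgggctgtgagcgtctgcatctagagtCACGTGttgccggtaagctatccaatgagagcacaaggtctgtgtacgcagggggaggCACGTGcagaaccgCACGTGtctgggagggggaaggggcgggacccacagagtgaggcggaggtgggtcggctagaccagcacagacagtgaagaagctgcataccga
Per1: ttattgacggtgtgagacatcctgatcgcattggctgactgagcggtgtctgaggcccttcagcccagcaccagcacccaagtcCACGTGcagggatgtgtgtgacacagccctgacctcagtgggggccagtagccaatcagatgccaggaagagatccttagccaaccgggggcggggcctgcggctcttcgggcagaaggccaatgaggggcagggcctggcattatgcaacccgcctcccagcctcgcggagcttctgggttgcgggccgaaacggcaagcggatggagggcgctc
The motif reads the same on both strands. Of the 2 entries of Per1 the one farther upstream is printed. The motif stood 3 times in Ciart and 1 time in this entry of Per1, and 0 times in the other. It was found in 4 of the 14 clock genes with an entry (28.6%), in 8.09% of all genes and in 7.15% of all promoters.

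**Figure D5:**
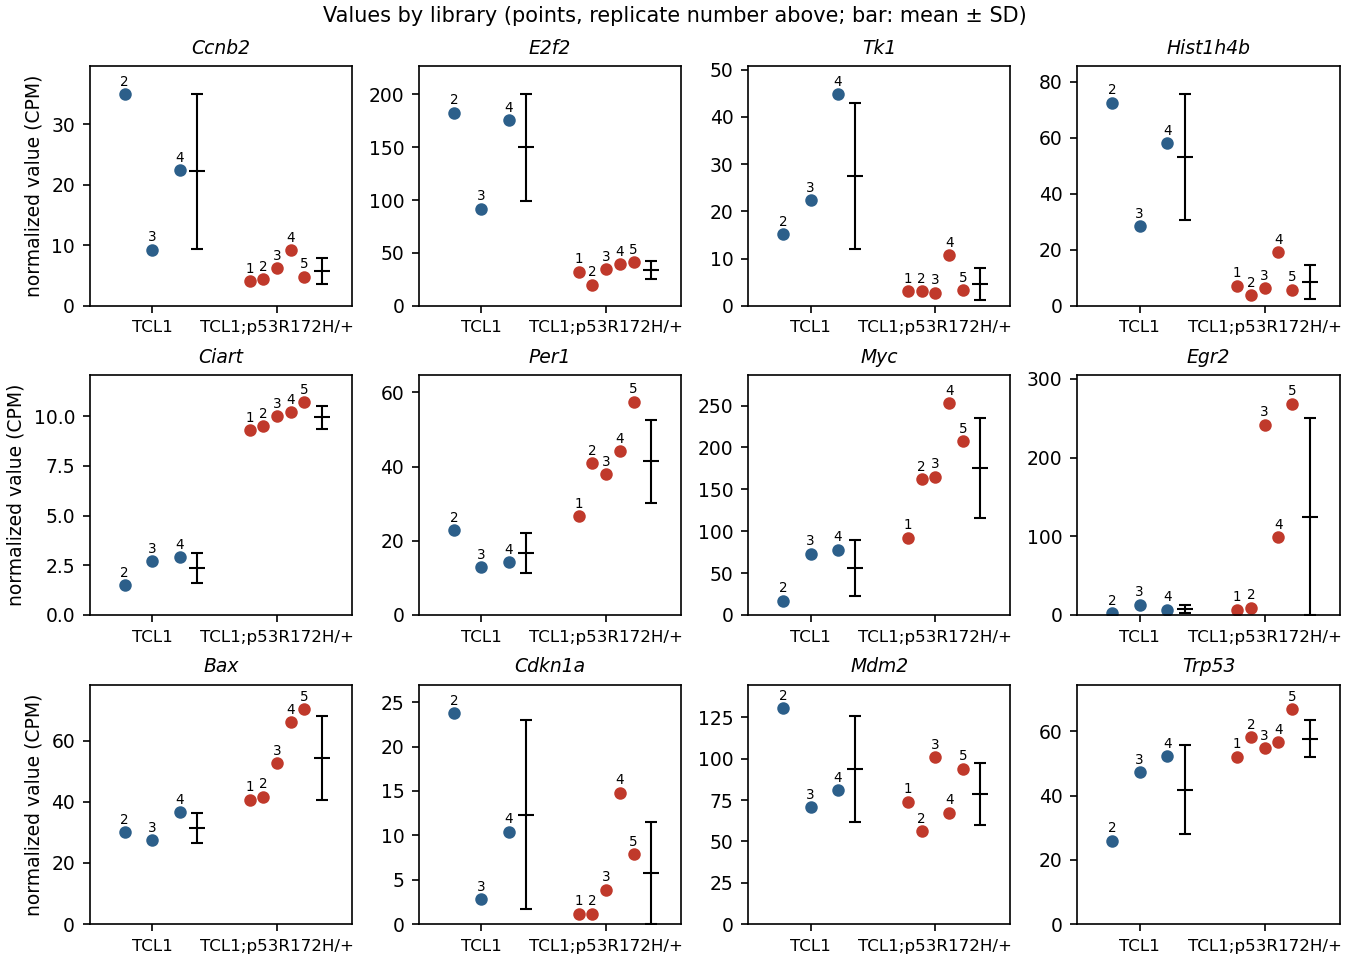
Normalized values (CPM) of 12 genes in each library (blue, TCL1; red, mutant; the number above a point is its replicate; black, mean ± SD). Ccnb2, E2f2, Tk1 and Hist1h4b are higher in every TCL1 library, Ciart, Per1, Myc and Bax in every mutant library, and Egr2, Cdkn1a, Mdm2 and Trp53 overlap.

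The B-cell receptor passes its signal through the kinases Lyn, Syk and Btk and the adaptor Blnk to Plcg2 and from there to calcium, NF-κB and MAP kinases. Of 49 listed genes of this pathway 21 were higher and 28 lower in mutant, with a median log2 difference of -0.11, 2 higher and 3 lower at an unadjusted p under 0.05 (3.52% and 4.65% of all genes) and 4 lower without overlap (2.93% of all genes). Map3k15, a MAP kinase kinase kinase, is not among the members of the route named above. The study picked it from these same data as a gene of Btk signaling. Map3k15 was 29.6, 26.9 and 15 in TCL1 and 5.5, 4.9, 2.8, 3.1 and 3.0 in mutant (log2 difference -2.33, standard error 0.34, adjusted p = 0.0836). It overlaps Pdha1 on the other strand. Dapp1, an adaptor that binds phosphoinositides after receptor signaling, was 70.7, 88.2 and 81.6 in TCL1 and 35.5, 35.4, 57.3, 51.2 and 49.6 in mutant (log2 difference -0.82, standard error 0.23, adjusted p = 0.429). Pirb, an inhibitory receptor also found on myeloid cells, was 210.4, 65.5 and 68.1 in TCL1 and 2.4, 4.2, 28.0, 39.7 and 31.8 in mutant. Its extremes are the libraries with the extreme marker levels, and over the 5 libraries its log2 difference was -1.003 and over the 8 libraries -2.75. Btk was 3.6 and 4.2 in mutant replicates 1 and 2 and 64.2 to 95.4 in the other 6 libraries, and over the 5 libraries it differed by -0.05. Syk was 523.7, 630.2 and 675.8 in mutant replicates 3, 4 and 5 and 1503.3 and 1309.8 in TCL1 replicates 3 and 4, a log2 difference of -1.21 over these 5 (adjusted p = 0.134). In the 5 libraries 6 genes of the pathway were higher and 8 lower at an unadjusted p under 0.05, beside 8.35% and 8.71% of all genes.

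Early genes that antigen receptors induce were higher in part of the mutant libraries. Of 25 listed, 18 were higher, 4 at an unadjusted p under 0.05 and 2 without overlap, beside 3.52% of all genes for either count, with a median log2 difference of 0.77. Myc, a driver of growth, was 92.2, 161.8, 165.2, 253.0 and 207.1 in mutant and 17.2, 73.4 and 77.9 in TCL1 (log2 difference 1.82, standard error 0.53, adjusted p = 0.473). Dusp5, a phosphatase that damps ERK signaling, was 59.5, 41.0, 39.7, 85.3 and 45.7 in mutant and 13.7, 26.0 and 33.9 in TCL1 (log2 difference 1.14, standard error 0.36, adjusted p = 0.505). These were the 2 genes without overlap. The transcription factor Egr2 was 241.5, 98.6 and 268.3 in mutant replicates 3, 4 and 5, but 6.7 and 9.5 in mutant replicates 1 and 2 and 2.2, 13.0 and 6.8 in TCL1. Over the 5 libraries its log2 difference was 4.16 (adjusted p = 0.0879). There 22 of the 25 genes were higher, and the median was 1.16. An unadjusted p under 0.05 was reached by 10 higher and 1 lower (beside 8.35% and 8.71% of all genes). Of the 25, 12 were higher without overlap (beside 16.5% of all genes). Over the 8 libraries the median was 0.42, 0.43 and 0.47 when mutant replicates 4, 5 and 3 were left out in turn. Nfkbia, the NF-κB inhibitor that NF-κB itself induces, was 1 of the 3 genes lower over the 5 libraries, at 109.4, 141.1 and 129.8 in these mutant libraries and 167.8 and 182.7 in TCL1 replicates 3 and 4.

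Surface and differentiation genes of B-1 cells and CLL were mixed over the 8 libraries, with 7 of 18 higher and 11 lower and a median of -0.27, which went from -0.85 without TCL1 replicate 2 to 0.06 without mutant replicate 1. With the 5 libraries 12 were lower, 1 higher and 6 lower had an unadjusted p under 0.05 and 9 were lower without overlap, beside 8.35%, 8.71% and 16.2% of all genes, and the median was -0.41. Cd5, the defining marker, was 11.7, 47.0 and 57.8 in TCL1 and 57.0, 23.9 and 57.3 in mutant replicates 3, 4 and 5, and 104.9 and 132.3 in mutant replicates 1 and 2, the libraries with high T-cell markers. T-cells are known to carry Cd5, and their part in these values was not tested. Fcer2a, which encodes CD23, was 7.6, 30.5 and 30.1 in TCL1 and 0.4, 1.2, 3.4, 4.4 and 3.3 in mutant (log2 difference -2.69, standard error 0.61, adjusted p = 0.319). Every mutant library was below every TCL1 library. Ctla4, an inhibitory receptor, was 109.8 and 97.8 in TCL1 replicates 3 and 4 and 7.1 to 12.1 in mutant, but 10.7 in TCL1 replicate 2. Lef1, a transcription factor of T-cells and of CLL, was 227.4 and 301.4 in mutant replicates 1 and 2, 93.9, 26.1 and 99.3 in mutant replicates 3, 4 and 5, and 23.0, 7.8 and 38.1 in TCL1. Of 7 plasma cell markers 7 were lower over the 8 libraries (median -1.42), 3 at an unadjusted p under 0.05 beside 4.65% of all genes. Over the 5 libraries 6 were lower (median -1.03), 0 of them at that p, beside 8.71% of all genes. The joining chain gene Igj was 203.2, 70.4 and 287.6 in TCL1 and 11.8, 16.4, 6.7, 61.5 and 3.5 in mutant (log2 difference -3.56, standard error 0.83, adjusted p = 0.338), and the secretory regulator Xbp1 was 157.4, 124.4 and 205.3 in TCL1 and 44.6, 45.7, 51.3, 129.0 and 52.3 in mutant. Mutant replicate 4 had the most of both in its group.

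For some other families the median depended on whether the libraries low in B-cell markers were used. The 11 genes of MHC class II, which B-cells carry, were all lower in mutant over the 8 libraries (median -0.94). Of these 0 had an unadjusted p under 0.05, beside 4.65% of all genes, and 9 of 11 were lower over the 5 (median -0.31). Of 7 NADPH oxidase genes 6 were lower over the 8 libraries (median -1.41) and 5 over the 5 (median -0.18). The catalytic subunit Cybb did not overlap over the 8 libraries, at 1630.4, 1905.2 and 968.3 in TCL1 and 46.2, 47.3, 476.3, 457.7 and 327.4 in mutant (log2 difference -3.05, standard error 0.90, adjusted p = 0.480). Interferon-stimulated genes were level over the 8 libraries, with 16 of 30 higher and a median of 0.03, and 26 of 30 were lower over the 5, 15 of them at an unadjusted p under 0.05 beside 8.71% of all genes, with a median of -0.98. The BCL2 family had medians near 0 in both, with 6 of 14 listed genes higher and a median of -0.05 over the 8 libraries and 8 of 14 and 0.09 over the 5. The survival gene Bcl2 was 865.7 and 737.7 in mutant replicates 1 and 2, 81.9 to 106.4 in mutant replicates 3, 4 and 5 and 37.5, 209.0 and 194.1 in TCL1. The T-cell receptor gene segments were 78 of 99 higher over the 8 libraries (median 0.62) and 49 of 99 over the 5 (median 0.00).

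Over the 5 libraries, 12 genes passed an adjusted p of 0.05 (0.0729% of all genes), 3 higher and 9 lower, and 2810 had an unadjusted p under 0.05 (17.1%). The higher ones were Prss23, Spire1 and Vegfa. Prss23, a serine protease, was 31.0, 24.0 and 28.5 in mutant replicates 3, 4 and 5 and 0.0 and 0.1 in TCL1 replicates 3 and 4 (log2 difference 4.77, adjusted p = 0.0302), but 0.2 in both mutant replicates 1 and 2. Vegfa, the growth factor of blood vessels, was 100.6, 97.8 and 137.9 against 5.9 and 7.3 (log2 difference 3.88, adjusted p = 0.0348), with 1.7 in both mutant replicates 1 and 2 and 38.8 in TCL1 replicate 2. These genes rose in the mutant libraries rich in B-cell markers and were low in the others of that genotype. Spire1, a nucleator of actin, had the same order (log2 difference 4.21, adjusted p = 0.0375). Among the lower ones, Hpn, a membrane protease, was 0.1, 0.1 and 0.0 against 11.4 and 9.8 (log2 difference -3.44, adjusted p = 0.0284) and was 0.2 in mutant replicates 1 and 2 and 1.1 in TCL1 replicate 2, so it did not overlap over the 8 libraries either. Krt222, a keratin-like gene, was 13.6, 12.1 and 11.9 against 126.6 and 117.6 (log2 difference -3.19, adjusted p = 0.0284), and 5.7 in TCL1 replicate 2. Serpina3h and the transcript Gm26685 were at 3.4 or less in every library. The other 5 were Ighv1-55, Igkv12-89, Rdh12, Reln and Gm15513. Among these 5 libraries mutant replicates 3 and 5 share their leading variable genes, and so do TCL1 replicates 3 and 4. The fit counted each library as a replicate, so all p-values over the 5 libraries may be too small. No fit with these pairs averaged was run over the 5.

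Whether any of these differences is particular to vehicle was tested by the interaction of genotype and treatment over all 15 libraries. Among the 15869 genes that both tables list, 0 passed the threshold with limma and 83 had an unadjusted p under 0.05 (0.523%). The fit took all libraries as independent. Yet leading variable genes were shared across treatments by mutant replicates 1, 4 and 5 and by TCL1 replicates 3 and 4. TCL1 replicate 2 in DMSO and TCL1 replicate 1 in ibrutinib also shared theirs (Ighv9-3 and Igkv3-5). Ignoring such pairs can hide an interaction, so 0 called genes does not show that none is particular to vehicle. Ighv1-55 had a log2 difference of -7.97 in DMSO and -7.70 in ibrutinib, and Igkv12-89 of -6.60 and -7.45. Pfkp had 1.40 and 0.10, Dbp 1.56 and 0.32, Myc 1.82 and 0.54 and Egr2 2.98 and 0.24, each with an adjusted p of 1 for the interaction.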

How the data were processed

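RNA of 8 DMSO libraries (5 mutant, 3 TCL1) was compared. Per the submitters' processing notes TopHat2 2.0.12, SAMtools 0.1.19, HTSeq and edgeR were used on GRCm38, with GENCODE M2 genes and a filter on genes under 0.5 CPM per the study's methods. In the deposited table each signal value is a CPM, which the authors obtained by scaling read counts to effective library sizes, rounded to 0.1. Column sums of 855661 to 1.244e+06 follow from this scaling, so depth is unknown, no counting error is given, and no count test was run.

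All 16470 genes were tested with limma 3.58.1 (R 4.3.3; lmFit, eBayes with trend) on log2(value + 1), p-values being adjusted by Benjamini-Hochberg over all of them and called below 0.05. The interaction used all 15 libraries, where a scale factor of a table cancels. Lists were described by counts and medians only. The members, gene lists and tests were chosen with earlier results of these data known. Named genes were Trp53, genes past the threshold, the 10 lowest p per direction among genes without overlap, the 3 lowest p of 12 lists, 16 set genes and each library's leading variable genes. Other genes, among them Cd8a, S100a8, Hbb-bs, Plk2, Chek2, Atm, Atr, Cry2, Arntl, Clock, Cry1, Per2, Syk, Egr2, Nfkbia, Igj, Xbp1, Bcl2 and those called over 5 libraries, were named after their values were seen. Of the genes, 16204 of 16470 had GENCODE M21 coordinates. The test was tried in 1 run on simulated data with 200 changed genes, all drawn from genes with a mean of at least 5. It recovered 52% of 4-fold and 75% of 16-fold changes, and 4.51% of called genes were false. The recovery of lower genes was not tried. The simulated noise was independent between libraries, unlike the alike pairs described above, so these shares may not hold for the data. Alternatives were pseudocounts of 0.1 and 5, a mean of at least 5, equal column sums, quantile normalization, quality weights, a replicate block, and libraries left out. Figures used matplotlib 3.10.9.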

Additional observations from a re-analysis of the deposited data

Results flagged for a closer look

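Among 100 named genes, 6 had a mutant library far from the other 4 by Dixon's test on the log2 scale, where chance alone flags about 1 in 20 groups. Mutant replicate 4 was the highest of its group in Tk1 (10.7), Hist1h2ae (3.3) and Xbp1 (129) and the lowest in Cirbp (31.9), a cold-inducible RNA-binding protein, and in Ighv1-55 (0.3). Mutant replicate 1 was the lowest in Igkv12-89 (2.7).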

How the results depend on the processing

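The count of genes past the threshold between genotypes, 2 in the fit as reported, moved with most choices. It was 6 with a pseudocount of 5 (all lower in mutant), 803 with sample quality weights (299 higher and 504 lower), 1 without the libraries with Y-linked transcripts, 1 without both mutant replicates 1 and 2, and 12 over the 5 libraries rich in B-cell markers. Averaging the alike mutant libraries in pairs, chosen after seeing the data, gave 0 (582 at an unadjusted p under 0.05), and the replicate block over numbers 2, 3 and 4 gave 0 (970 at an unadjusted p under 0.05). Same-numbered libraries deviated from their group means with correlations of 0.19, 0.28 and 0.05, so the numbers were not taken to pair them. With each library left out in turn the count ranged from 0 (without TCL1 replicate 3) to 61 (without TCL1 replicate 2). It was 3 with a pseudocount of 0.1, a mean of at least 5 or equal column sums, and 2 after quantile normalization. The interaction stayed at 0 called genes with a pseudocount of 5, a mean of at least 5 and the block. That block joins equal replicate numbers of both genotypes, so it does not pair libraries by leukemia. The median log2 difference of histone genes was -0.83 over the 5 libraries, and that of clock genes 0.17 without both mutant replicates 1 and 2 and between 0.39 and 0.74 with each library left out in turn. The medians of gene lists were not tested. Of 100 named genes, 89 kept their sign in all 19 alternatives, and the exceptions include Cdkn1a, Mdm2, Btk, Cd5, Lyz2, Ighv9-3, Igkv3-5, Hbb-bs, Ms4a1 and Cd8a. Many were named for a low p or for not overlapping, and leaving out libraries cannot turn a gene without overlap, so this count is partly fixed by the choice. Values under about 1 CPM rest on a rounding step of 0.1, which limits Reln, Chst1 and Gm15513.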
